A study of Arabidopsis thaliana with 6 samples.

Results

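The XTH genes of Arabidopsis thaliana encode xyloglucan endotransglucosylase/hydrolases, enzymes of the plant cell wall. The genes were taken as every gene whose symbol is XTH followed by a number and that alone was assigned to an ATH1 probe set by the annotation. This gave 9 of the 13356 genes measured in this way, namely XTH16, XTH18, XTH19, XTH20, XTH21, XTH26, XTH29, XTH32 and XTH33. Where a gene had several probe sets the brightest was to be used, but each of the 9 genes had 1. The family was taken up because earlier results of these data had shown falls in it, with XTH16, XTH19 and XTH33 given as examples. The differences of these 3 genes and the count over the family are therefore given as a description, without a p-value.

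Signals came from single-colour ATH1 arrays hybridised with RNA of the aerial parts of 10-day-old seedlings, 1 array per sample. The samples were 3 of SPT4-R3, a single line (line 3) that targets SPT4 by RNA interference, and 3 of wild type, all in the Columbia background and called biological replicates in the labels. Every seedling was stratified for 2 days, grown on MS agar with 16 h of light and 8 h of dark, and harvested 2 h after the light came on. The labels do not give the promoter of the RNA interference construct, and they do not say whether replicates were sown separately, so p-values measure the spread between these samples.

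Xyloglucan is a branched glucan that coats and tethers cellulose microfibrils in the primary wall of growing plant tissue. Most XTH enzymes cut a xyloglucan chain and join the cut end to another chain, which lets the wall be rebuilt while the cell expands, and a few mainly hydrolyse the chain. Many XTH genes are known for responding to hormones such as auxin and brassinosteroid, to light and to touch. SPT4, the target of the RNA interference, forms with SPT5 a factor that travels with RNA polymerase II during transcript elongation.

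An SPT4 locus and the tissue were checked first. The SPT4-1 locus AT5G08565 read 5.0, 4.89 and 4.97 in SPT4-R3 and 5.79, 6.05 and 6.03 in wild type on the deposited log2 scale, without overlap. No other SPT4 locus was examined. Of the 6 listed leaf markers only RCA, LHCB4.1 and LHCB4.2 were measured. They averaged between 12.9 and 14.1 in SPT4-R3 and between 13.7 and 14.4 in wild type. All 3 fell, where 21.6% of all genes were lower. Of the 5 listed root markers 4 were measured. Of these 0 passed the limma test, where 21.6% of all genes were lower and 24.7% higher, and 0 had an unadjusted p under 0.05. PYK10, a root beta-glucosidase, averaged 11.8 in each genotype, so the arrays do not show that root tissue was absent. EXPA7, EXPA18 and PRX44 lay between 4.22 and 5.15 in SPT4-R3 and between 4.23 and 5.14 in wild type. Any part of tissue make-up in the XTH differences was not tested, and in these bulk samples fewer cells of a type and less RNA per cell cannot be told apart.

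On the deposited scale 6 of the 9 XTH genes were lower in SPT4-R3 in the limma fit over all probe sets, none was higher and 3 did not pass the test (Benjamini-Hochberg adjusted, threshold 0.05). At an unadjusted p under 0.05 the count of higher genes was also 0. Of all 13356 genes, 21.6% were lower and 24.7% were higher by the same rule. The 6 lower genes include XTH16, XTH19 and XTH33, the examples for which the family was taken up, beside XTH32, XTH18 and XTH26. Their count beside the share of all genes is therefore a description only. The differences of SPT4-R3 minus wild type ran from -1.82 to 0.02 among the XTH genes, with a median of -0.36, against a median of -0.003 over all genes. XTH19, XTH33, XTH16 and XTH32 lay well above the control probe sets for a bacterial trp transcript, which read 3.46 to 3.84 on the 6 arrays. The other 5 genes read between 3.71 and 4.59 in SPT4-R3 and between 3.86 and 5.03 in wild type. Of these XTH20, XTH21, XTH26 and XTH29 lay close to those controls in both genotypes, and XTH18 lay above them. Differences in these dim genes are open to background, since no detection call was used.

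**Figure D1:**
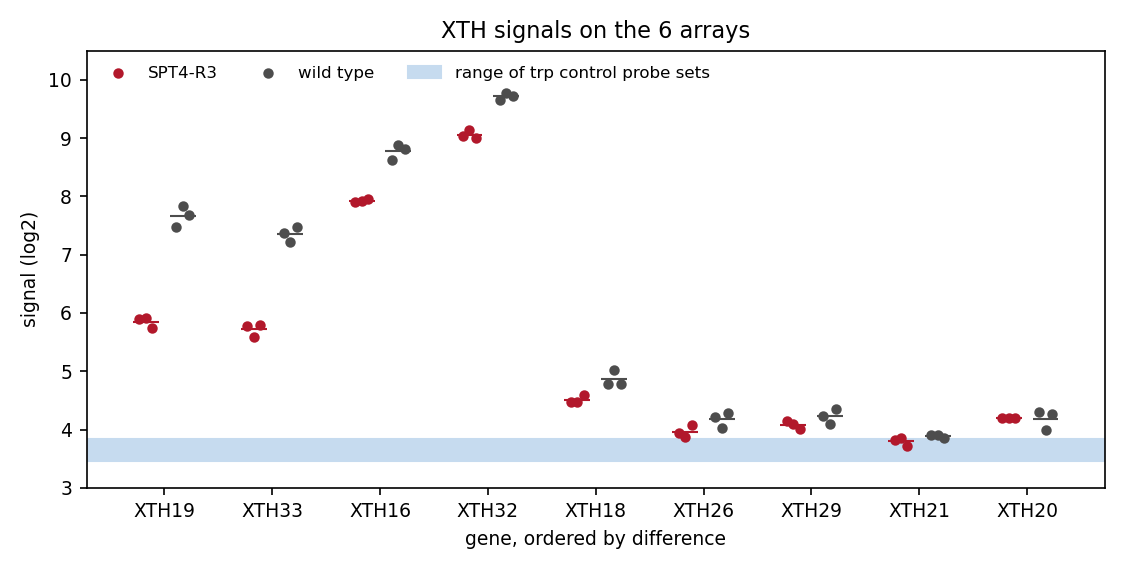
Log2 signal of the 9 XTH genes on each array, with SPT4-R3 in red left of wild type in grey, 3 points and a mean line per genotype, and the values of the trp controls as a blue band. The genotypes are apart without overlap in XTH19, XTH33, XTH16, XTH32 and XTH18, and overlap in the other 4 genes, which lie near the band.

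XTH19 (AT4G30290), a transglucosylase of a subgroup known mainly from roots, had the lowest difference among the 9 measured genes, though not clearly apart from XTH33. It read 5.89, 5.91 and 5.74 in SPT4-R3 and 7.47, 7.84 and 7.69 in wild type. The highest SPT4-R3 array was thus more than 1 log2 unit below the lowest wild-type array. The difference was -1.82 ± 0.0912 (SE, n = 3 per genotype), a 3.53-fold lower signal. Among all genes, 0.494% had a difference as low or lower.

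XTH33 (AT1G10550), an unusual member whose protein carries a membrane anchor, was next. It read 5.77, 5.59 and 5.80 in SPT4-R3 and 7.38, 7.21 and 7.48 in wild type, again without overlap. The difference was -1.64 ± 0.0818 (SE), a 3.11-fold lower signal, and 0.704% of all genes had one as low or lower. The 95% intervals of XTH19 (-2.02 to -1.62) and XTH33 (-1.82 to -1.45) overlapped, and the order of the 2 genes was not tested.

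XTH16 (AT3G23730), another transglucosylase-type member, changed less. It read 7.90, 7.93 and 7.96 in SPT4-R3 and 8.63, 8.89 and 8.81 in wild type. All SPT4-R3 arrays lay below every wild-type array. The difference was -0.85 ± 0.0700 (SE), a 1.80-fold lower signal, and its interval (-1.0 to -0.69) did not reach that of XTH33.

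XTH32 (AT2G36870) belongs to the branch of the family known for hydrolysing xyloglucan rather than joining it. It read 9.04, 9.14 and 9.0 in SPT4-R3 and 9.66, 9.78 and 9.72 in wild type, with no overlap. On the log2 scale it fell by 0.66 ± 0.0596 (SE, 3 arrays per genotype), or 1.58-fold, with a limma adjusted p of 7.92e-06. Against a null difference of 0.5 log2 in place of 0 its adjusted p was 0.101, and its adjusted p ranged from 7.77e-08 to 0.101 over the 16 alternatives.

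XTH18 (AT4G30280) lies beside XTH19 on chromosome 4, with XTH24 on its other side in the RefSeq gene order. It read 4.47, 4.47 and 4.59 in SPT4-R3 and 4.79, 5.03 and 4.78 in wild type. The genotypes did not overlap, but the signal was dim in both. It fell by 0.36 ± 0.0759 (SE) on the log2 scale (limma adjusted p = 0.00288). Taken array by array, the log2 ratio of the XTH19 signal to the XTH18 signal was 1.42, 1.44 and 1.15 in SPT4-R3 and 2.68, 2.81 and 2.91 in wild type. The mean of this ratio differed by -1.46 (SPT4-R3 minus wild type). Since XTH18 was dim, background may hold down its measured difference, and the ratio does not show that the 2 transcripts changed by unequal amounts. Whether the probes of these genes cross-hybridise with related XTH transcripts was not tested.

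XTH26 (AT4G28850), known from root hairs, was the least secure of the 6 calls. It read 3.94, 3.87 and 4.08 in SPT4-R3 and 4.22, 4.03 and 4.29 in wild type, so that the third SPT4-R3 array lay above the second wild-type array. It fell by 0.22 ± 0.0801 (SE) on the log2 scale (limma adjusted p = 0.0462). The call was lost without SPT4-R3 replicate 1 (adjusted p = 0.125) or 2 (0.169), without wild-type replicate 1 (0.121) or 3 (0.168), and after quantile normalization (0.0602), with adjusted p between 0.0122 and 1 over its 15 alternatives.

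The other 3 genes did not pass the test. XTH29 (AT4G18990), a gene of the same branch as XTH27, read 4.01 to 4.14 in SPT4-R3 and 4.1 to 4.36 in wild type, a difference of -0.15 with a 95% interval of -0.31 to 0.01 (limma adjusted p = 0.116). Without wild-type replicate 2, its difference was -0.22 and was called (adjusted p = 0.0317). Over its alternatives the adjusted p ran from 0.0235 to 1. The value of 0.0235 belonged to a rise of 0.24, after centring on the bioB, bioC and bioD controls described below. XTH21 (AT2G18800), known from root growth, read 3.71 to 3.86 in SPT4-R3 and 3.86 to 3.91 in wild type, a difference of -0.10 with an interval of -0.22 to 0.03 (adjusted p = 0.194). XTH20 (AT5G48070), a relative of XTH18 and XTH19, read 4.2 on all 3 SPT4-R3 arrays and 4.30, 3.99 and 4.26 in wild type. Its difference was 0.02 with an interval of -0.16 to 0.19 (adjusted p = 0.885). The interval leaves room for a rise of up to 0.19 in this signal, which may in part be background.

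**Figure D2:**
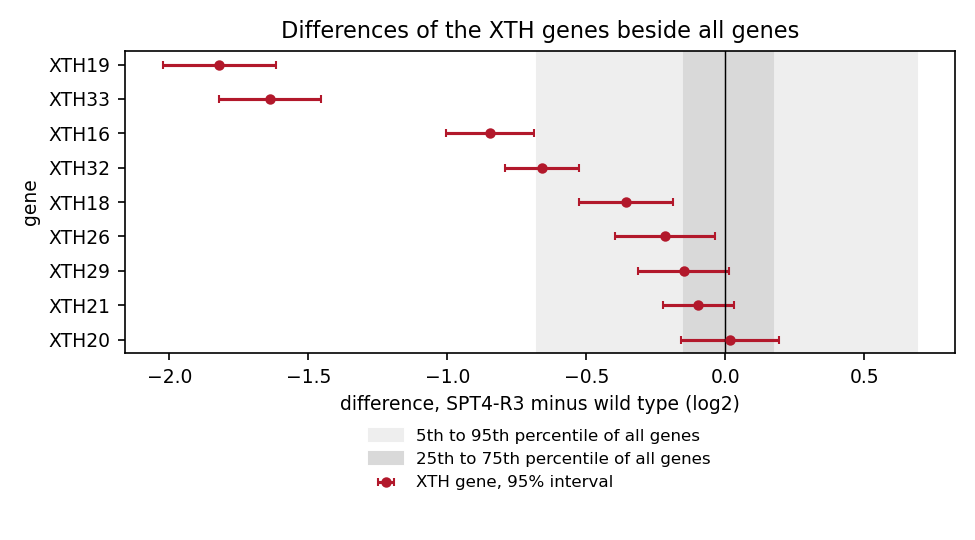
Difference of SPT4-R3 minus wild type on the log2 scale for the 9 XTH genes, as points with 95% intervals of the limma fit (n = 3 arrays per genotype), over bands for the middle of all 13356 genes. The points of XTH19, XTH33 and XTH16 lie below the 5th percentile of all genes (-0.68), XTH32 lies close to it at -0.66, and the intervals of XTH29, XTH21 and XTH20 cross 0.

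Ordered by difference, the only neighbours with 95% intervals apart were XTH33 and XTH16. The intervals of XTH32 and XTH18 only just met, at -0.53. Overlap of intervals is not a test between genes, and none was made. For 5 XTH genes, the 3 examples among them, the 3 arrays of SPT4-R3 lay below all 3 of wild type, for none above, and for 4 the genotypes overlapped. Of all genes, 24.5% lay below without overlap and 27.2% above. XTH19 and XTH33, 2 of the 9, were lower by at least 1 log2 unit, where 2.3% of all genes were called lower by as much. These 2 genes are among the examples for which the family was taken up, so this count is a description only.

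The sign of the difference in 4 of the 5 dim genes, all but XTH20, turned when arrays were centred on hybridisation controls, a shift that moves all genes alike. The bioB, bioC and bioD hybridisation controls averaged 8.62 ± 0.114 in SPT4-R3 and 9.01 ± 0.0302 in wild type (SD, n = 3), and they differed by -0.39 (p = 0.1 in a two-sided exact permutation test, the lowest possible with 3 arrays against 3). Centring each array on these controls moved the median difference of all genes to 0.39 and that of the XTH genes to 0.04. The differences of XTH19, XTH33, XTH16 and XTH32 were then -1.43, -1.24, -0.45 and -0.27. XTH20, XTH21 and XTH29 were called higher, at 0.41, 0.30 and 0.24, while XTH18 (0.04) and XTH26 (0.18) were not called. By the same fit 10450 of all 13356 genes were called higher and 798 lower. The poly-A controls (dap, thr, phe and lys) differed by -0.15 (exact p = 0.2), and centring on them moved the median of all genes to 0.15. It left 4 XTH genes called lower and 0 called higher, and 0 were higher at an unadjusted p under 0.05. Over all 13356 genes it gave 3831 called higher and 1263 called lower. XTH18, at -0.21, and XTH26, at -0.07, were then no longer called (limma adjusted p = 0.166 and 0.68). The error of a control mean is shared by all genes of an array, which the fit does not allow for. Calls after either centring are therefore a description only. The order of the 9 genes and the gaps between them are the same under either centring, since it adds 1 number to all genes of an array.

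**Figure D3:**
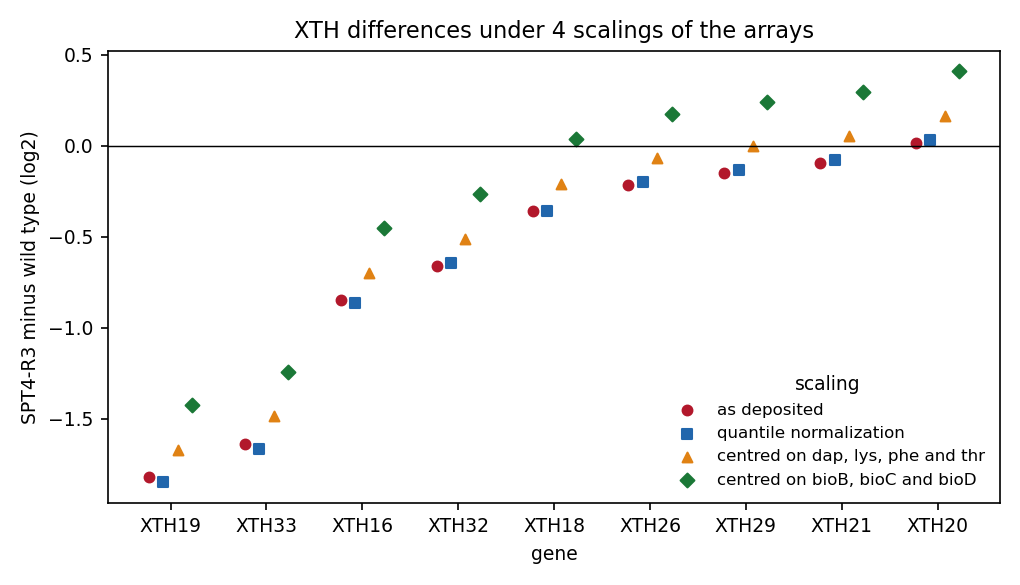
Log2 difference of SPT4-R3 minus wild type for each XTH gene under 4 scalings of the arrays, marked by shape and colour. XTH19, XTH33, XTH16 and XTH32 stay below 0 under all 4, and centring on bioB, bioC and bioD lifts XTH18, XTH26, XTH29 and XTH21 above 0.

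1 further gene of the family stood in the annotation under an older name. EXGT-A3 (AT2G01850), also called XTH27 and known from the forming vessels of leaves, read 11.5, 11.4 and 11.32 in SPT4-R3 and 11.98, 12.01 and 12.06 in wild type. The genotypes did not overlap, and the signal fell by 0.61 ± 0.0607 (SE) on the log2 scale, or 1.53-fold (limma adjusted p = 1.6e-05). The other 23 of the 33 XTH genes in the RefSeq table had no single-gene probe set in this annotation and were not analysed here, so the 9 genes cannot stand for the family.

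Among the genes that build xyloglucan, the 5 CSLC genes, which encode synthases of the glucan backbone, were the ones measured. The xylosyl-, galactosyl- and fucosyltransferases that add the side chains were not analysed here. Of the 5 CSLC genes 4 fell and 1 rose, with a median difference of -0.24, where 21.6% of all genes were lower and 24.7% higher. CSLC4 (AT3G28180), whose product supplies much of the xyloglucan of the plant, read 8.81, 8.86 and 8.87 in SPT4-R3 and 9.19, 9.34 and 9.25 in wild type. It fell by 0.41 ± 0.0571 (SE) on the log2 scale. CSLC8 (AT2G24630) fell by 0.35, CSLC12 (AT4G07960) by 0.24 and CSLC5 (AT4G31590) by 0.15, while CSLC6 (AT3G07330) rose by 0.20. These small changes moved with single arrays. Only 2 were called lower without SPT4-R3 replicate 3 or wild-type replicate 2 or 3, and CSLC6 lost its call without SPT4-R3 replicate 2 or 3 or wild-type replicate 3. No CSLC gene was called lower in limma after centring on either set of array controls, and at an unadjusted p under 0.05 the count was 0 with bioB, bioC and bioD and 1 with the poly-A controls. Genes called lower under these centrings numbered 798 and 1263 of all 13356. None of the 3 xyloglucan-trimming glycosidases was analysed here. Of the 14 cellulose synthesis genes COB (AT5G60920), a membrane-anchored protein that helps orient cellulose, was the 1 measured, and it rose by 0.29 ± 0.0558 (SE).

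The expansins loosen walls without cutting their polymers and are a second group of wall-remodelling proteins. Of 18 measured, 9 fell, 1 rose and 8 did not pass the test, with a median difference of -0.21, where 21.6% of all genes were lower and 24.7% higher. The 10 alpha-expansins held 4 falls and 1 rise, and the other 8 expansins held 5 falls and no rise, also at an unadjusted p under 0.05 (0 higher). The differences ran from -3.32 in EXPA8 (AT2G40610) to 0.87 in EXPA20 (AT4G38210), the 1 that rose. EXLB1 (AT4G17030) and EXLA1 (AT3G45970), named like these after their values were seen, differed by -1.98 ± 0.102 and -1.72 ± 0.0559 (SE) on the log2 scale. Centring on bioB, bioC and bioD gave 8 expansins called higher and 7 called lower. Under that centring 10450 of all 13356 genes were called higher and 798 lower. EXPA7 and EXPA18 are at once expansins and root markers.

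**Figure D4:**
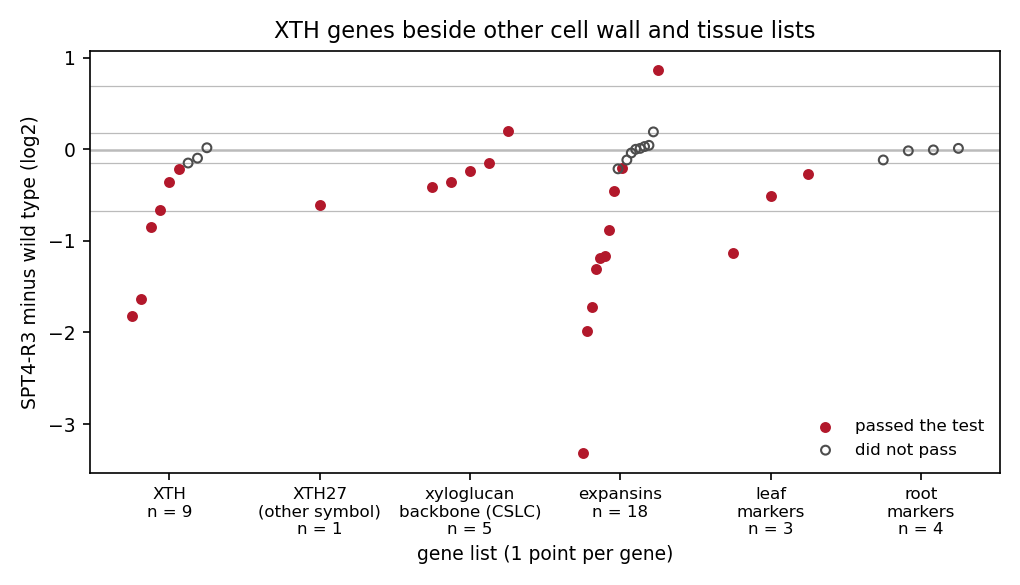
Log2 difference of SPT4-R3 minus wild type for each measured gene of the XTH family, XTH27, the CSLC genes, the expansins and the leaf and root markers, filled red where the limma test was passed and open where it was not. Grey lines are the 5th, 25th, 50th, 75th and 95th percentiles of all genes, and the XTH genes run from -1.82 to 0.02.

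The genes next to the XTH genes on the chromosomes were looked at as well. The 2 protein-coding genes on each side of each XTH gene in the RefSeq order gave 11 measured genes that were not XTH members, of which 2 were lower, 4 were higher and 5 did not pass the test. The shares over all genes were 21.6% lower and 24.7% higher, and 11 genes are too few to tell these counts from them. The neighbours were chosen by position alone. AT4G30310, the second gene beyond XTH19, fell by 0.71 ± 0.110 (SE) on the log2 scale, and AT2G36885, the second beyond XTH32, rose by 1.15 ± 0.0598. The measured neighbours of XTH16 and XTH33 were AT3G23740, which rose by 0.25, and AT1G10530, with a difference of -0.05 (limma adjusted p = 0.592).

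A search for similar genes covered only the 1557 of the 13356 genes with a symbol other than their locus. Those whose 6 array values, centred on their own mean, lay nearest to those of the 3 example genes were listed as a description. Nearest to XTH19 were P1R1 (AT5G57780), at a Euclidean distance of 0.211 log2 units and with a difference of -1.86, and BZIP34 (AT2G42380), a bZIP transcription factor, at 0.231 and -1.79. Nearest to XTH33 were CYTC6A (AT5G45040), a cytochrome of the chloroplast, at a distance of 0.228 and with a difference of -1.52, and ZW9 (AT1G58270), at 0.266 and -1.65. Nearest to XTH16 were MSRB5 (AT4G04830), a methionine sulfoxide reductase, at 0.140 and -0.84, and GSTU16 (AT1G59700), a glutathione S-transferase, at 0.143 and -0.90. With 2 genotypes this likeness reflects mostly the size of the difference.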

How the data were processed

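The deposited values are log2 signals, 1 per probe set and array, as their range shows. The software was Affymetrix Expression Console, per the submitters' processing notes. Not given in the sources used here are its algorithm and its normalization. Precision is limited by the number of arrays (6), and no scan date was used.

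Of 22810 probe sets, 64 array controls were left out and 22746 were tested, of which 13513 had 1 gene, 503 had several and 8730 had none in the annotation table. Symbols were updated by Entrez identifier in a RefSeq table (TAIR10.1), which held 13436 of the 13513. Because the files name no build, that table served for names and gene order. limma 3.58.1 in R 4.3.3 (lmFit, eBayes) compared SPT4-R3 with wild type on the deposited values, two-sided, with Benjamini-Hochberg adjustment over all 22746 and a threshold of 0.05. The fit was tested on simulated data. It found 10 of 50 changes of 0.25 log2, 38 of 50 of 0.5, and all 50 of 1 and of 2, with 5 false calls. Small differences that did not pass the test are thus not shown to be absent. No test was made over a gene list.

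The members and gene lists were chosen with earlier results of these data known. Named were all XTH genes, the measured xyloglucan and cellulose synthesis genes, the markers, the SPT4-1 locus, and the 2 nearest patterns for each of XTH16, XTH19 and XTH33. Chromosomal neighbours and 4 expansins were added. The replicate numbers did not pair the samples. Alternatives were 4 other scalings, a filter on dim probe sets, eBayes with trend and robust settings, a replicate block, each array left out, averaging the probe sets of a gene, removal of identifiers that mark shared probes, and treat against 0.5 log2.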

Additional observations from a re-analysis of the deposited data

How the results depend on the processing

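The count of 6 XTH genes lower and 0 higher became 3 lower under treat against 0.5 log2, and 4 lower and 3 higher after centring on bioB, bioC and bioD. The XTH median difference of -0.36 became 0.037 under that centring, -0.21 after centring on the poly-A controls and -1.24 without the dimmest 30% of probe sets, a filter that left 4 of the 9 genes. Leaving out 1 array gave 5 to 7 XTH genes lower, none higher, and a median between -0.40 and -0.29. Centring on bioB, bioC and bioD turned XTH18 to 0.037, XTH21 to 0.30, XTH26 to 0.18 and XTH29 to 0.24. The poly-A centring turned XTH21 to 0.053, and leaving out single arrays moved XTH20 between -0.08 and 0.075. These turns under centring follow from the shift itself, which is common to all genes. Over the 16 alternatives, given as a description, the difference ran from -0.92 to -0.45 in XTH16, from -1.92 to -1.43 in XTH19 and from -1.71 to -1.24 in XTH33. XTH32 was called lower under 15 of the 16.

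With the replicate number as a block 6 XTH genes were lower and none higher, with a median of -0.36. Deviations of same-numbered arrays correlated at -0.24, -0.126 and -0.0645, so the numbers were not taken as pairs. Over all genes, 3296 higher and 2884 lower became 10450 and 798 with bioB, bioC and bioD, 3831 and 1263 with the poly-A controls, and 615 and 584 under treat. The higher calls were 53.3%, 92.9%, 75.2% and 51.3% of these. Signals near the trp controls limit what XTH20, XTH21, XTH26 and XTH29 can show, while XTH18 was dim but lay above those controls.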
